A study of Sus scrofa with 8 samples.

Results

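The genes of de novo lipogenesis, the route by which liver turns surplus carbon into palmitate, were followed in the livers of 8 pigs. The members are FASN, ACACA, ACLY, ACSS2 and ME1, all enzymes of the route, and SREBF1, which encodes one of its main transcriptional regulators. Members were all probe sets, that is groups of probes for 1 transcript, whose array annotation gave exactly 1 of these symbols. This rule found 5 of the 6 genes, with 11 of the array's 23999 probe sets: 4 for FASN, 2 each for ACACA, ACSS2 and ME1, and 1 for SREBF1. It found 0 for ACLY, the citrate-cleaving enzyme, which was not analysed here. Liver RNA was hybridised on the Affymetrix porcine array, 1 array per animal, from 4 Korean native pigs (KNP) aged 7 months and 4 Yorkshire pigs (YS) aged 6 months. KNP is an indigenous Korean breed and YS a commercial one, and the labels state that the animals were raised under the same conditions. The labels give neither the sex of the animals nor their feeding state at slaughter. Age follows breed, so the effects of breed and age cannot be told apart in any value given here.

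In de novo lipogenesis, citrate leaves the mitochondrion and is split to cytosolic acetyl-CoA, which ACSS2 can also make from acetate. Acetyl-CoA carboxylase (ACACA) converts acetyl-CoA to malonyl-CoA, fatty acid synthase (FASN) builds palmitate from both, and malic enzyme (ME1) supplies part of the NADPH that the reductions use. SREBP-1, the product of SREBF1, binds the promoters of these genes, and in mammalian liver its activity rises with insulin and feeding. In the pig, adipose tissue is the main site of de novo fatty acid synthesis, and liver contributes less.

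The deposited intensities were scaled per array by the authors, and the median of the arrays ran from 152.6 to 180. They were compared as log2(intensity + 16) with limma, and differences are KNP minus YS on that scale. Of the 11 probe sets, 8 lay in the upper 60% by mean log2 value and were tested, and 3 (FASN probe set 4, ACACA probe set 2 and ME1 probe set 2) were not. Probe sets of a gene are numbered by falling mean. None of the 8 tested probe sets passed limma's adjusted p threshold of 0.05, where 149 of 14399 probe sets (1.03%) passed. At an unadjusted p under 0.05 the members had 3 of 8, against 2178 of 14399 (15.1%) over the whole array. All 3 were lower in KNP, a direction that held 1160 of 14399 (8.06%). These 3 were both probe sets of ACSS2 and the one of ME1, so they stand for 2 genes. The breeds failed to overlap in 0 of the 8 member probe sets, and in 1394 of 14399 (9.68%) over the array. Differences were below 0 in 6 of 8, and over the array in 51.1% of probe sets.

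**Figure D1:**
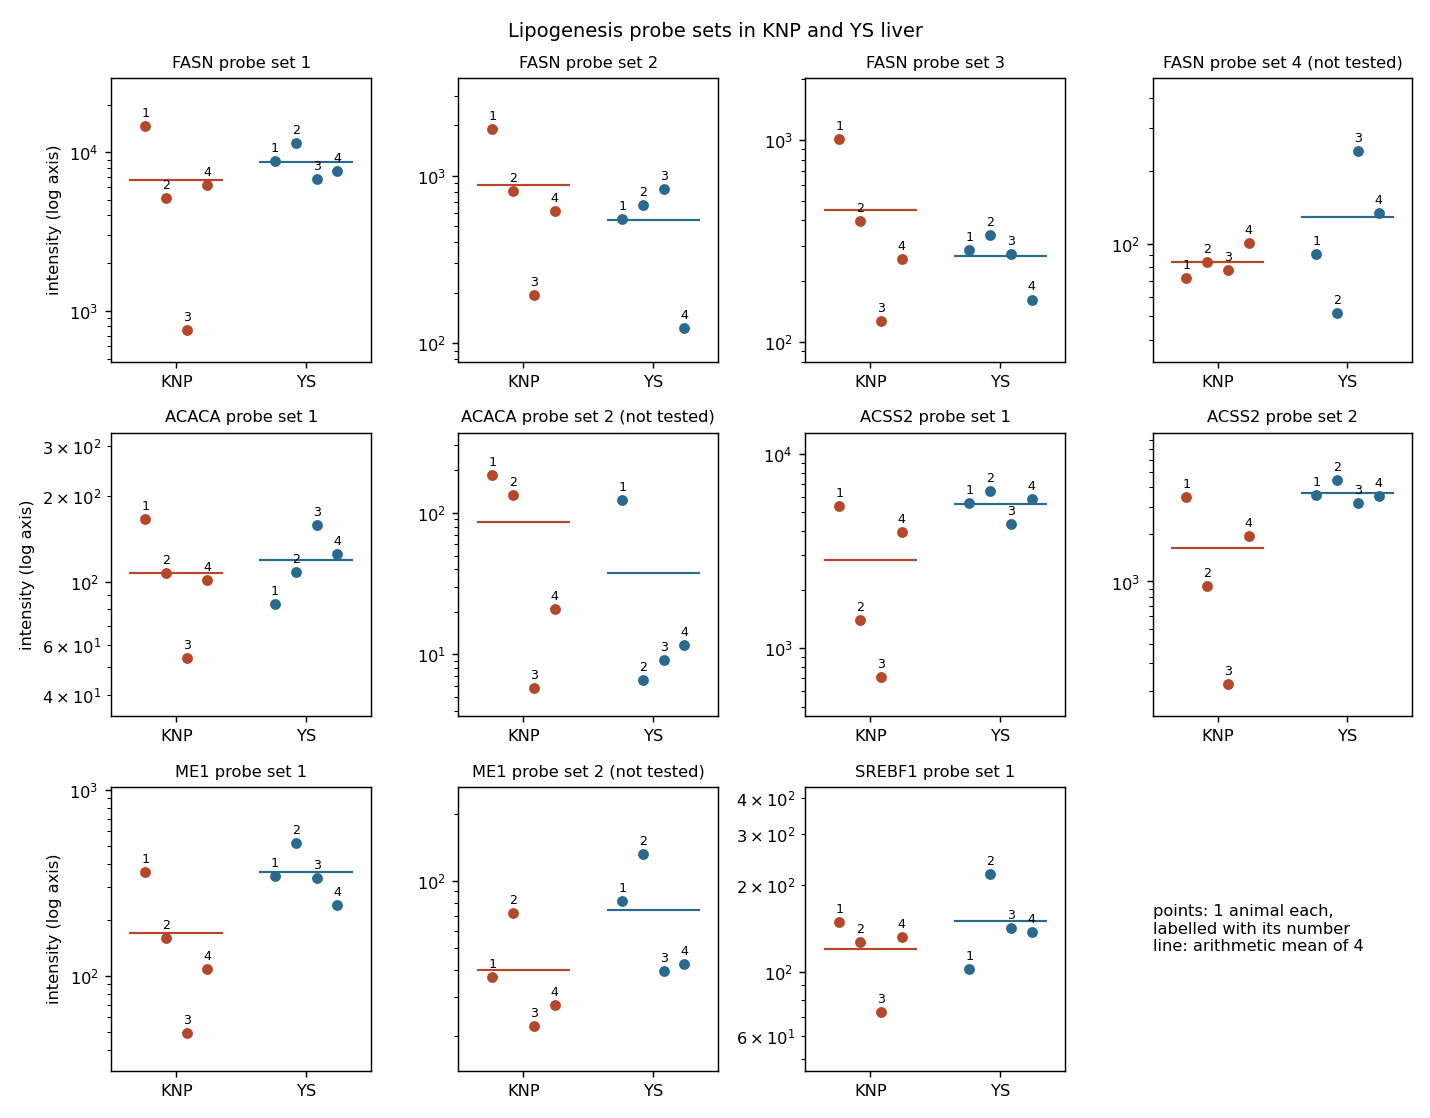
Intensity (log axis, 1 panel per probe set) of the 11 lipogenesis probe sets in 4 KNP (left) and 4 YS animals (right), each point an animal with its number and each line an arithmetic mean of 4. In FASN probe set 1, both ACSS2 probe sets and ME1 probe set 1 the KNP animals are spread more widely than the YS animals, with KNP animal 3 lowest. In ME1 probe set 2 the log2 SD is 0.53 in KNP and 0.67 in YS.

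The enzyme that makes acetyl-CoA from acetate, ACSS2, was measured by a pair of probe sets. Probe set 1 (Ssc.27871.1.S1_at) had intensities of 5378, 1397, 713 and 3941 in KNP animals 1 to 4, against 5559, 6405, 4332 and 5877 in YS animals 1 to 4. KNP animals 2 to 4 lay below every YS animal, and KNP animal 1 lay inside the YS range. Its means were 2857 ± 2180 in KNP and 5543 ± 880 in YS (SD, n = 4 per breed), with a log2 difference of −1.35 (SE 0.51, 95% interval −2.47 to −0.22, limma adjusted p = 0.250). Probe set 2 (Ssc.27871.2.S1_at) had 3468, 930 and 220 in KNP animals 1 to 3 and 1945 in KNP animal 4, against 3555, 4447, 3182 and 3494 in YS. The order of the KNP animals was the same in both probe sets. The difference of the second was −1.72 (SE 0.63, 95% interval −3.11 to −0.33, limma adjusted p = 0.237).

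Malic enzyme, ME1, showed the same low KNP animal. Probe set 1 (Ssc.16336.1.S1_at) had 363, 159, 49.4 and 109 in KNP animals 1 to 4, against 345, 515, 337 and 241 in YS animals. KNP animals 2 to 4 again lay below all YS animals and KNP animal 1 among them. The log2 difference was −1.25 (SE 0.45, 95% interval −2.24 to −0.26, limma adjusted p = 0.225), with means of 170 ± 136 in KNP and 360 ± 114 in YS (SD, n = 4 per breed). ME1 probe set 2 (Ssc.16336.1.S2_at), below the filter and not tested, had 37.1, 72.0, 22.4 and 27.7 in KNP, against 81.8, 132, 39.4 and 42.4 in YS. Its breeds overlapped through KNP animal 2, and its means differed by −0.65.

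FASN, the multifunctional synthase that makes palmitate, had the widest log2 spread among KNP animals of the tested members with its first probe set. Probe set 1 (Ssc.18175.1.A1_at) had 14608 in KNP animal 1, 5150 in animal 2, 763 in animal 3 and 6262 in animal 4, against 8871, 11459, 6778 and 7622 in the YS animals. KNP thus held both the highest and the lowest of the 8 values. The means were 6695 ± 5785 in KNP and 8683 ± 2041 in YS (SD, n = 4 per breed), and the log2 difference was −0.96 (SE 0.68, 95% interval −2.45 to 0.53, limma adjusted p = 0.544). Without KNP animal 3 this difference was −0.13, and without KNP animal 1 it was −1.54.

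FASN probe sets 2 and 3 gave differences of the opposite sign, which also did not pass. Probe set 2 (Ssc.25076.1.A1_at) had 1908, 812, 194 and 613 in KNP, against 552, 669, 834 and 123 in YS. KNP animal 1 was again highest, but YS animal 4 and not KNP animal 3 was lowest. Probe set 3 (Ssc.25076.2.S1_at) had 1008, 398, 127 and 259 in KNP, against 287, 340, 273 and 162 in YS. Their differences were 0.55 (SE 0.67, 95% interval −0.92 to 2.01) and 0.40 (SE 0.49, 95% interval −0.68 to 1.47), with limma adjusted p of 0.744 and 0.747. The difference of probe set 3 turned to −0.11 without KNP animal 1, and that of probe set 2 to −0.031 without YS animal 4. FASN probe set 4 (Ssc.16368.1.S1_at) lay just under the filter, at a mean log2 value of 6.82 where the limit was 6.83, and had 71.9 to 101 in KNP and 51.8 to 241 in YS. KNP animals 1 and 3, the KNP extremes of the other FASN probe sets, had 71.9 and 77.9 in it.

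Whether the FASN probe sets differed unequally between the breeds was tested within arrays, where a scaling factor cancels apart from the pseudocount. For each of the 4 pairs of tested probe sets of a gene, the log2 value of one minus that of the other was compared by a two-sided exact permutation test, whose smallest possible p is 0.0286. Probe set 1 minus probe set 3 of FASN was 3.61 ± 0.86 in KNP and 4.97 ± 0.36 in YS (SD, n = 4 per breed), without overlap between the breeds (difference −1.36, exact p = 0.0286, adjusted over the 4 pairs 0.114). The breeds came close to overlap, with KNP animal 4 at 4.51 and YS animal 3 at 4.55. Probe set 1 minus probe set 2 was 2.69 ± 0.60 in KNP and 4.20 ± 1.16 in YS (difference −1.51, exact p = 0.0571, adjusted 0.114). With 4 pairs, these 2 contrasts alone at the smallest p would have an adjusted p of 0.0571, so they could not pass by themselves, and the disagreement was known from earlier results on these data. Without KNP animal 3 the contrast of probe sets 1 and 3 was −0.97, and without YS animal 4 that of probe sets 1 and 2 was −0.98. Probe sets 2 and 3 of FASN, and those of ACSS2, differed in their contrasts by 0.15 and 0.37 (exact p of 0.771 and 0.200), that of ACSS2 by 0.15 without KNP animal 3. The actin 3' to 5' control ratio, a measure of RNA length, also did not overlap between the breeds, at 2.68 to 6.45 in KNP and 8.39 to 11.8 in YS (exact permutation p = 0.0286), while the GAPDH ratio did, at 2.30 to 3.77 in KNP and 3.07 to 4.05 in YS. A second actin control set, with ratios of 0.118 to 0.489 in KNP and 0.0752 to 0.496 in YS, overlapped (exact permutation p = 0.686). So did a second GAPDH set, at 2.36 to 3.91 in KNP and 3.29 to 5.01 in YS (exact permutation p = 0.114). The spiked hybridization controls did not overlap, with geometric means of 2747 to 4230 in KNP and 5167 to 7651 in YS (exact permutation p = 0.0286). The part of these controls in the FASN contrasts was not tested.

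**Figure D2:**
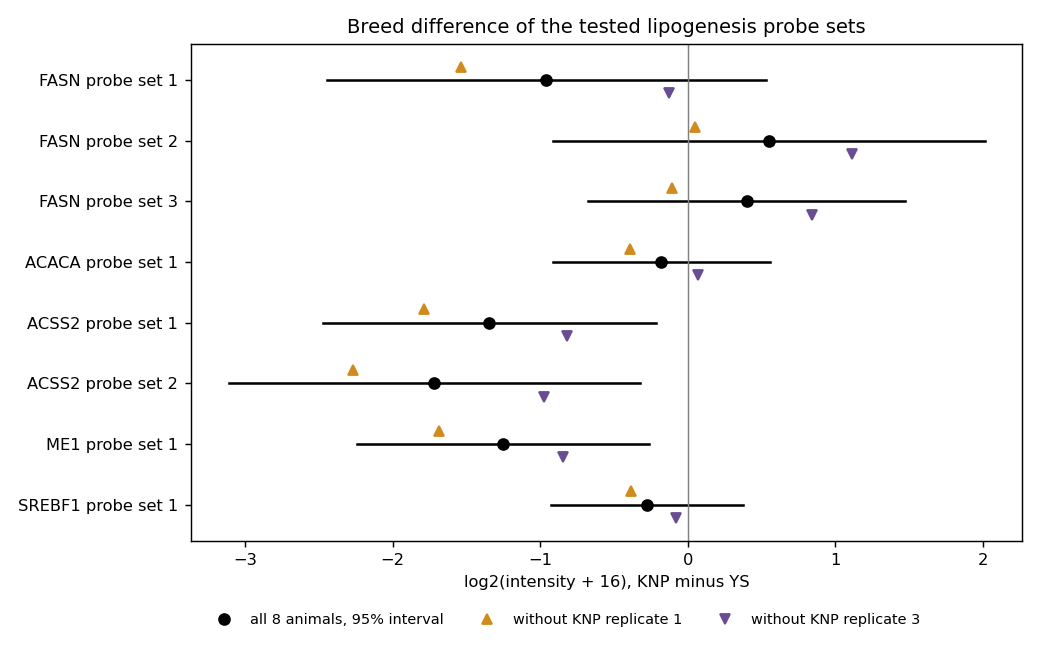
Difference of log2(intensity + 16), KNP minus YS, for the 8 tested probe sets, with all 8 animals (black point, bar for the 95% interval, unadjusted) and without KNP replicate 1 (upward triangle) or KNP replicate 3 (downward triangle). The intervals of ACSS2 and ME1 lie below 0 and those of FASN, ACACA and SREBF1 include it, and leaving out KNP replicate 3 shifts FASN probe set 1 to −0.13.

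Acetyl-CoA carboxylase, ACACA, which catalyses the committed step, gave a small difference in its tested probe set. Probe set 1 (Ssc.16018.1.A1_at) had 166, 107, 53.8 and 102 in KNP, against 83.6, 108, 158 and 125 in YS, a log2 difference of −0.18 (SE 0.33, 95% interval −0.91 to 0.55, limma adjusted p = 0.840). These values lay below the median of their array in 7 of 8 animals, and without KNP animal 3 the difference turned to 0.066. ACACA probe set 2 (Ssc.16018.1.S1_at), not tested, had 184, 134, 5.83 and 20.8 in KNP, against 123, 6.55, 9.15 and 11.7 in YS. Its values fell into a higher and a lower range, and both ranges held animals of both breeds.

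SREBF1, the regulator, was measured by 1 probe set (Ssc.15992.1.S1_at), with 149, 127, 72.8 and 133 in KNP, against 102, 218, 142 and 138 in YS. KNP animal 3 was lowest here as well, and the breeds overlapped. The difference was −0.28 (SE 0.29, 95% interval −0.93 to 0.37, limma adjusted p = 0.700). The means were 120 ± 33.2 in KNP and 150 ± 48.8 in YS (SD, n = 4 per breed). The probe set gives transcript only, not the processing of the SREBP-1 precursor, and the annotation does not say which SREBF1 isoform it detects. SREBF1 averaged 135 and ACACA 113 over the 8 animals, beside array medians of 152.6 to 180, and the table holds no detection calls.

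Differences were also set against each other between the genes, in 10 pairs of first probe sets, a comparison chosen after seeing the data. Two-sided exact permutation tests were adjusted over the 10 pairs, and none passed. Had the 4 pairs of ACSS2 or ME1 with ACACA or SREBF1 alone reached the smallest p, their adjusted p would have been 0.0714, so the adjusted values do not say whether these genes differ. ACACA minus ACSS2 lay at −4.22 ± 0.89 in KNP and −5.38 ± 0.52 in YS on the log2 scale (SD, n = 4 per breed; exact p = 0.0857, adjusted 0.286), and ME1 minus SREBF1 at 0.20 ± 0.73 in KNP and 1.17 ± 0.36 in YS (exact p = 0.114, adjusted 0.286). The values are given as a description.

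The spread among animals was wider in KNP for most members. On the log2 scale, FASN probe set 1 had an SD of 1.79 in KNP and 0.33 in YS, ACSS2 probe set 1 had 1.33 in KNP and 0.24 in YS, and ME1 probe set 1 had 1.05 in KNP and 0.43 in YS. SREBF1 had nearly equal SDs, 0.40 in KNP and 0.41 in YS. The SD was larger in KNP in 7 of the 8 tested member probe sets, where 59.7% of all tested probe sets had a larger SD in KNP. The median SD was 1.25 in KNP and 0.37 in YS over the members, and 0.32 in KNP and 0.27 in YS over all tested probe sets. These are descriptions with no test, and probe sets of 1 gene share its transcript.

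KNP animal 3 had the lowest of the 8 values in 7 of the 8 tested member probe sets, and the lowest KNP value in all 8. Over all tested probe sets it was the lowest of the 8 animals in 14.6%. KNP animal 1 had the highest KNP value in all 8, and in 4 of them, 3 of FASN and 1 of ACACA, the highest of all animals. The actin 3' to 5' control ratios of KNP animals 1 to 4 were 3.80, 2.68, 6.45 and 6.37. KNP animal 3 thus had the highest in KNP, close to KNP animal 4, and every YS animal was above it, at 8.39 to 11.8. In the second actin control set KNP animals 1 to 4 had 0.489, 0.474, 0.164 and 0.118, so KNP animals 3 and 4 were the lower ones there. The GAPDH ratios of KNP animals 1 to 4 were 2.30, 2.59, 3.51 and 3.77. The part of RNA quality in the low values of KNP animal 3 was not tested. Without KNP animal 3 the differences shrank to −0.82 and −0.97 for ACSS2, −0.84 for ME1 and −0.084 for SREBF1, and without KNP animal 1 they grew to −1.78 and −2.27 for ACSS2 and −1.69 for ME1. None of the 8 probe sets passed in either case, the smallest limma adjusted p being 0.0774, for ME1 without KNP animal 1.

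**Figure D3:**
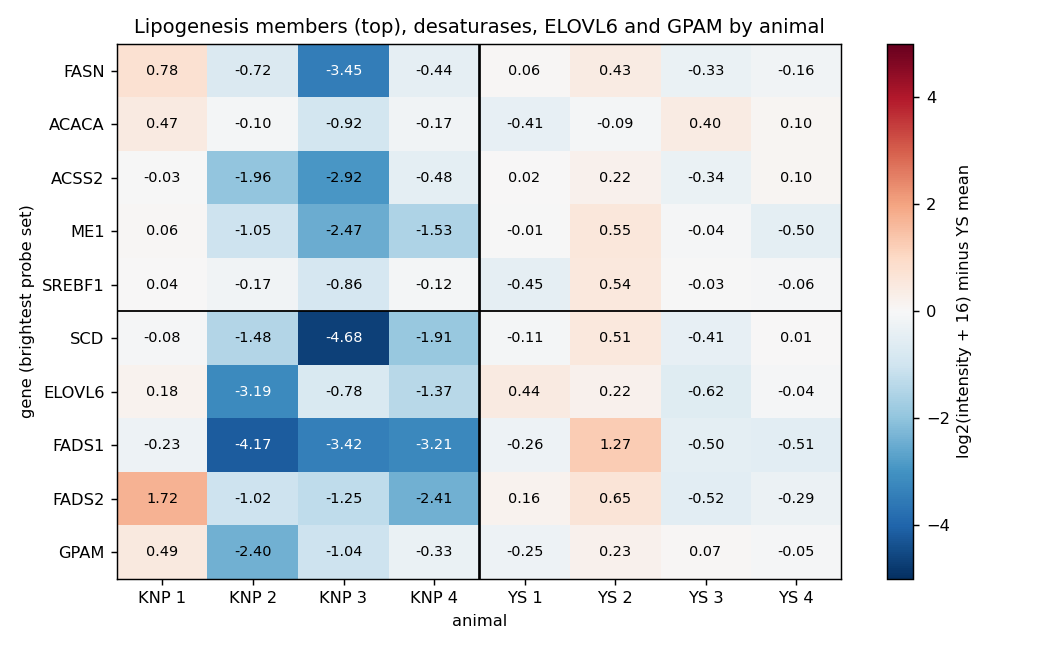
Difference of log2(intensity + 16) from the YS mean (colour and number) in each KNP (left) and YS animal (right) for the 5 members above the line and the desaturases, ELOVL6 and GPAM below it, by the probe set with the highest mean. KNP 3 reaches −3.45 in FASN and −4.68 in SCD, while KNP 1 lies near the YS mean or above it in all 10 genes.

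The genes most like each member across animals were sought by the Pearson correlation of log2 values over the 8 arrays, after the mean of each breed was subtracted, among 5422 other genes. For FASN these were SCD, a fatty acid desaturase (r = 0.98, Spearman's rho = 0.88), and RRM1, a subunit of ribonucleotide reductase (r = 0.98, rho = 0.93). Without KNP animals 1 and 3, the farthest from the median of FASN, r was 0.65 for SCD and 0.74 for RRM1. For ACSS2 they were MSRA, a methionine sulfoxide reductase, at 0.99, and RHBDD3 at 0.97. For ME1 they were SERPIND1, the plasma protease inhibitor heparin cofactor II, at 0.97, and IREB2, an iron-regulatory RNA-binding protein, at 0.96. For ACACA they were POP7 (0.98) and FZD2 (0.96), and for SREBF1 RBBP7 (0.94) and TMEM135 (0.94). Leaving out KNP animals 1 and 3 gave 0.94 for MSRA, 0.89 for RHBDD3, 0.93 for SERPIND1 and 0.79 for IREB2. The same step gave 0.92 for POP7 and 0.93 for FZD2. For SREBF1 the farthest animals were KNP 3 and YS 2, and r without them was 0.73 for RBBP7 and 0.99 for TMEM135. With 8 arrays and 5422 genes, high values are found for any gene, and all genes on 1 array share its RNA and hybridisation.

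Among the members themselves FASN was closest to ACSS2 (r = 0.91) and ME1 (r = 0.90), which ranked 23 and 39 of the 5422 genes. Between FASN and SREBF1 r was 0.75, and between FASN and ACACA 0.77. Without KNP animals 1 and 3 these values were 0.59 for ACSS2, 0.53 for ME1, 0.55 for SREBF1 and −0.62 for ACACA. The likeness was lower in each of these 4 pairs without these animals, and between FASN and ACACA its sign turned. It turned as well between ACSS2 and ME1, from 0.73 to −0.29. Between ACACA and ACSS2 r went from 0.68 to −0.31, and between ACACA and ME1 from 0.73 to −0.20. For pairs with SREBF1, r without KNP animals 1 and 3 fell from 0.66 to 0.20 with ACSS2, from 0.74 to 0.56 with ME1 and from 0.67 to 0.27 with ACACA. Without KNP 3 and YS 2, the farthest animals of SREBF1, r was 0.21 with FASN, 0.26 with ACSS2 and 0.20 with ME1. With ACACA it rose to 0.92, so the direction of that change depended on the animals left out.

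The rest of the pathway was read from 9 lists of 72 genes, of which 49 were on the array with 1 symbol and 47 were tested, each by its probe set with the highest mean. None of the 47 passed limma's adjusted p threshold. An unadjusted p under 0.05 was found in 14 of 47, a larger share than the 15.1% over the array, in lists chosen with earlier results known. Their median difference was −0.042, beside −0.0086 over all tested probe sets, and the groups did not overlap in 6 of 47, beside 9.68% over the array. The members by their first probe sets ran from −1.35 to −0.18, and the desaturases, the elongase ELOVL6 and the acyltransferase GPAM from −2.76 to −0.74.

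All 5 tested genes of the list of desaturases, ELOVL6 and GPAM, which modify or esterify fatty acids, had a difference below 0 on the log2 scale. This direction also held after quantile normalization and after median centring. It was weakest in the desaturase FADS2 (log2 −0.74, SE 0.71, limma adjusted p = 0.665), which was dim. Its arithmetic mean was higher in KNP, at 159 beside 151 in YS, and KNP animal 1 was highest of all, at 510. FADS1, the desaturase of long polyunsaturated fatty acids, had 1160, 61.0, 114 and 133 in KNP, against 1137, 3317, 964 and 956 in YS (log2 −2.76, SE 0.72, limma adjusted p = 0.108). It passed without KNP animal 1 (−3.60, limma adjusted p = 0.0154), and with any other single animal left out its limma adjusted p was above 0.05. SCD had 20274, 7665, 821 and 5687 in KNP, against 19830, 30479, 16070 and 21589 in YS (log2 −2.04, SE 0.73, limma adjusted p = 0.223). Without KNP animal 3 its difference was −1.16 (limma adjusted p = 0.206), and without KNP animal 1 it was −2.69. In FADS1 and SCD KNP animals 2 to 4 lay below every YS animal and KNP animal 1 inside the YS range. The same held in both ACSS2 probe sets and in ME1 probe set 1, but not in ME1 probe set 2.

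The supply of citrate gave differences in both directions. PC, pyruvate carboxylase, which makes oxaloacetate for citrate and for glucose, had 3307, 6684, 9025 and 3670 in KNP, all above the 2322, 2402, 2759 and 2461 of YS (log2 1.06, SE 0.28, limma adjusted p = 0.110). KNP animal 3, lowest in the lipogenic members, was highest in PC. Citrate synthase, CS, had 1941 to 2701 in KNP, all below the 3204 to 4102 of YS (log2 −0.54, SE 0.16, limma adjusted p = 0.135). PDHB, a subunit of pyruvate dehydrogenase named after its values were seen, was also lower without overlap (log2 −0.28, SE 0.13, limma adjusted p = 0.355). The other 5 genes of this list overlapped between the breeds, and the median of the 8 was −0.16 (−0.046 after quantile normalization). Among 5 genes of NADPH supply, the transketolase TKT showed −0.79 (SE 0.28, limma adjusted p = 0.217) and the cytosolic isocitrate dehydrogenase IDH1 −0.28 (SE 0.37), and the list median was −0.019.

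The 9 tested genes around the carboxylase, mainly subunits of AMP-activated kinase, which phosphorylates and inhibits it, had a median of 0.010 (−0.0087 after quantile normalization). The beta subunits PRKAB2 and PRKAB1 had higher values in KNP without overlap, at 0.80 (SE 0.29) and 0.48 (SE 0.17), with limma adjusted p of 0.221 and 0.222. PRKAB2 had 135 to 255 in KNP and 68.6 to 119 in YS. PRKAB1 had 732 to 1064 in KNP and 612 to 682 in YS. The catalytic subunits PRKAA1 and PRKAA2 showed −0.043 and −0.11.

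None of the tested regulators of SREBP passed. Of 5 genes of SREBP processing, INSIG2, which holds the precursor in the endoplasmic reticulum, showed 0.30 (SE 0.27) and the paralogue SREBF2 −0.14 (SE 0.18), with limma adjusted p of 0.640 and 0.753, and the median was −0.020. NR1H3, the liver X receptor alpha that activates SREBF1 transcription, had 1605 to 1767 in KNP, above the 1004 to 1573 of YS (log2 0.41, SE 0.16, limma adjusted p = 0.268), and RXRA, its partner, showed −0.33 (SE 0.27). Among 5 genes of insulin signalling, AKT1 showed 0.64 (SE 0.20, limma adjusted p = 0.166) and INSR, the insulin receptor, −0.62 (SE 0.27, limma adjusted p = 0.310). Of the glycolytic list FBP1, which works in the opposite direction, showed −0.45 (SE 0.16) and PFKL 0.32 (SE 0.28), with limma adjusted p of 0.212 and 0.626. Of 3 other acyl-CoA and acyl synthases ACSS3 showed −0.45 (SE 0.24) and MCAT 0.28 (SE 0.25), with limma adjusted p of 0.420 and 0.636.

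**Figure D4:**
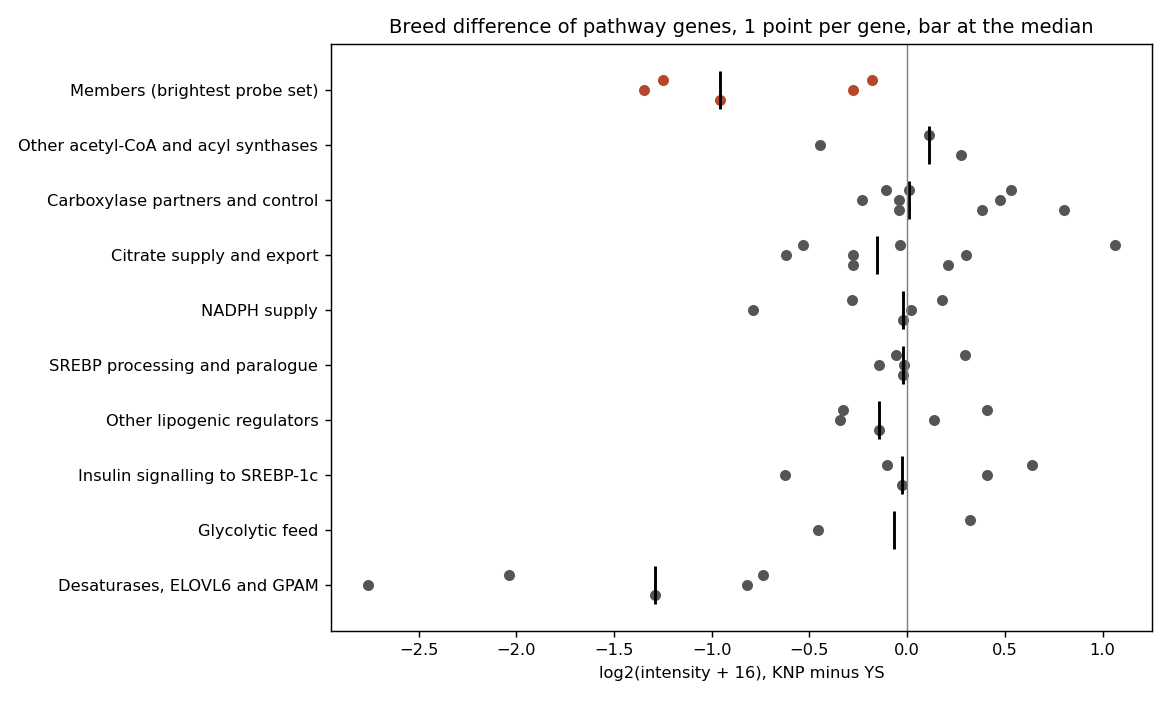
Difference of log2(intensity + 16), KNP minus YS, with 1 point per tested gene for the 5 members (top row) and the 9 pathway lists, and a bar at each median. With 1 probe set per gene the members lie below 0, although FASN probe sets 2 and 3, not drawn, had 0.55 and 0.40 and ACACA turned to 0.066 without KNP animal 3. The desaturases, ELOVL6 and GPAM lie below 0, while the medians of the other 8 lists lie between −0.16 and 0.11.

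Markers of tissue and cell type were read beside these values. The 8 hepatocyte markers were present at high intensity in every array, and their summed intensity was 266503 to 315277 in KNP and 430858 to 462340 in YS. Of these 8, 6 fell in KNP by limma on the deposited scale, and 0 after quantile normalization, where 5 of 8 had a difference below 0. Fits without the intensity trend, without the filter or with the replicate block also called 0 of the 8, and median centring called 3, with all 8 below 0. Array weights and leaving out the lower 60% each called 7. Either other pseudocount and the filter on mean intensity called 6. ALB, albumin, fell by 0.69 (SE 0.10, limma adjusted p = 0.0245) and showed −0.059 after quantile normalization (limma adjusted p = 0.768). Of 5 adipocyte markers on the array 4 lay below the filter, and their summed intensity was 318 to 610 in KNP and 477 to 652 in YS. Leptin, LEP, among these dim markers, had 15.9 to 73.2 in KNP and 77.9 to 215 in YS, without overlap and not tested. The other adipocyte markers overlapped and went both ways. FABP4 averaged 124 in KNP and 94.6 in YS, and LPL 102 in KNP and 74.2 in YS. ADIPOQ averaged 54.1 in KNP and 103 in YS, and ADRB3 130 in KNP and 146 in YS. The 5 Kupffer cell and macrophage markers summed to 9020 to 12574 in KNP and 5392 to 11056 in YS, and 0 of 4 tested passed. Sums of the 3 T and NK cell markers were 368 to 724 in KNP and 271 to 548 in YS. Those of 4 endothelial markers were 2406 to 2759 in KNP and 1648 to 2964 in YS. The 2 muscle markers, both below the filter, summed to 43.7 to 92.7 in KNP and 80.2 to 273 in YS. Of these, CKM did not overlap, at 16.6 to 64.1 in KNP and 66.8 to 226 in YS. MYH7 overlapped, with means of 41.5 in KNP and 19.9 in YS. In whole tissue, fewer cells of a type and less RNA per cell cannot be told apart, and the part of these markers in the member values was not tested.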

How the data were processed

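The deposited table gives a linear intensity for each probe set, with 1 array per animal. The submitters' processing notes name GCOS 1.3. Its signal algorithm is not stated in the labels. The mean between the percentiles 2 and 98 was 499.8 on every array, which shows that the authors scaled each array to one level. Arrays have no read depth, and 4 animals per breed limit the precision.

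Of 24123 probe sets, 124 controls were left out. Intensities were transformed as log2(value + 16), and medians of the arrays differed by 0.22, under the limit of 0.5 for quantile normalization. The lower 40% by mean were left out. Breed was the only term in limma 3.58.1 (R 4.3.3; lmFit, eBayes with intensity trend, two-sided), with Benjamini-Hochberg adjustment over 14399 probe sets. Intervals are unadjusted 95% intervals from the moderated fit. Contrasts within arrays used two-sided exact permutation tests (scipy 1.17.1). Symbols came from the platform annotation in GEO, and all 11 member probe sets had the same symbol in the gene table of Sscrofa11.1. On simulated data for this comparison, limma recovered 48% of 50 probe sets changed 2-fold and 92% of 50 changed 4-fold, with 6 other calls among 14399. These shares were not worked out for probe sets as variable as the members. The members had a median log2 SD of 1.25 in KNP, beside 0.32 over all tested probe sets. The shares therefore do not say which changes in the members would have been called.

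The members and lists were chosen with earlier results of these data known. All member probe sets are named, from each pathway list every gene past the threshold plus the 2 with the smallest p, and for each member the 2 most similar genes; other genes named were chosen after their values were seen. Equal replicate numbers belong to different animals, and their deviations correlated between −0.020 and 0.051, so animals were not paired. Alternatives changed the pseudocount (1 or 64), the scaling (quantile normalization or median centring), the filter (none, or 60% left out), the trend, the array weights and the animals (each left out in turn), or added a replicate block. A filter on mean intensity was chosen after seeing the data. P-values set a breed difference against the variation among these animals, and those of limma also draw on the variances of all tested probe sets.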

Additional observations from a re-analysis of the deposited data

Results flagged for a closer look

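In ACACA probe set 2, YS animal 1 stood apart from the other YS animals, at an intensity of 123 against 6.55 to 11.7. The gap took 0.887 of the range on the log2 scale, above Dixon's 95% critical value for 4 values. This was 1 of 22 groups of 4 looked at, and chance flags about 1 in 20. The probe set lay below the filter and was not tested.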

How the results depend on the processing

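The number of member probe sets called was 0 under every alternative run, which covers both pseudocounts, quantile normalization, median centring, both other filters on low values, the filter on mean intensity, no intensity trend, array weights, the replicate block and each animal left out. Calls over all probe sets ran from 8 to 180 beside 149, with 8 under the replicate block and 8 without YS replicate 3. With the replicate block 0 member probe sets and 0 pathway genes were called, as without it, and 0 of 8 hepatocyte markers instead of 6; the smallest limma adjusted p of a member was 0.209. The pathway genes called were 0 to 1 with 1 animal left out, the 1 being FADS1 without KNP replicate 1. Under these alternatives 138 member differences kept their sign and side of the threshold and 3 changed sign. These turned to −0.11 for FASN probe set 3 without KNP replicate 1, 0.066 for ACACA probe set 1 without KNP replicate 3 and −0.031 for FASN probe set 2 without YS replicate 4; with 1 animal left out these probe sets ran from −0.11 to 0.84, from −0.39 to 0.066 and from −0.031 to 1.11. Of the within-gene contrasts, FASN probe set 2 minus 3 ran from −0.22 (without YS replicate 4) to 0.41 with 1 animal left out, FASN 1 minus 2 from −1.91 to −0.98 (without YS replicate 4), FASN 1 minus 3 from −1.66 to −0.97 (without KNP replicate 3) and ACSS2 1 minus 2 from 0.15 (without KNP replicate 3) to 0.50. With 3 against 4 animals the exact test cannot pass, so this says nothing about their stability. Quantile normalization moved SREBF1 to −0.16 and ACACA to −0.036, while ACSS2 stayed at −1.35 and −1.72. The list medians of NADPH supply (−0.019) and SREBP processing (−0.020) turned to 0.057 and 0.056 after median centring. ACACA and SREBF1 averaged below the array medians, and the table holds no detection call to set such signals against background.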

Other observations

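KNP animal 3 was not the lowest in every gene of fatty acid synthesis. ELOVL6, which elongates palmitate, was lowest in KNP animal 2, at 1057 beside 11138, 5724 and 3775 in KNP animals 1, 3 and 4, and 6377 to 13312 in YS. GPAM, which starts glycerolipid assembly, lay at −2.40 relative to the YS mean on the log2 scale in KNP animal 2 and at −1.04 in KNP animal 3. PPARGC1A, a coactivator of fasting metabolism, had 1602, 217, 389 and 736 in KNP and 619 to 1056 in YS, with KNP animal 1 highest of all 8. These genes were chosen after their values were seen, and no test was made of which animal was lowest.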
